A study of Mus musculus with 9 samples.

Results

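The genes described here are 9 genes for cell surface and secreted proteins, Cspg4, Ngfr, Ly75, Cd24a, Gpnmb, Nptx1, Flt1, Pla2g7 and Erbb3, of 47729 genes listed for each library. They were chosen by their levels in these same libraries, as genes several-fold higher in SRCs of cycle 3 (SRC3) than in FRCs of cycle 1 (FRC1) or in the parental cells (PAR), so their rise in SRC3 is given below as a description, without a test. The study sequenced messenger RNA, with a stranded kit, of mouse skeletal muscle myoblasts of the strain FVB/N, in 3 libraries for each of SRC3, FRC1 and PAR. SRC3 and FRC1 were reserve cell populations, that is, cells that stay undifferentiated when a myoblast culture forms myotubes, and the labels give 2 passages under growth conditions between their isolation and harvest. PAR is the parental population, whose number of passages the labels do not give, and no label names a drug, transgene or mutation in any group. The labels speak of triplicate libraries and not of separate cultures, so the p-values below measure the spread between these libraries, which may be technical.

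Gene counts came to between 13012996 and 14336279 per library, and 3 counts in 1 library were worth 0.21 to 0.231 CPM, a gene's count scaled by TMM to the sum of its library. All 9 genes passed the filter on low counts, and 8 passed it with the SRC3 libraries left out. Ngfr passed through SRC3 alone. Reads that aligned to several places were tallied apart from gene counts, and their tally was 143 to 144.6% of the gene counts in SRC3, 125.2 to 132.1% in FRC1 and 116.1 to 120.3% in PAR. It was highest in SRC3, as the 9 genes were, and its part in the results was not tested. The myoblast markers of the labelled cell type were present in all groups, with 539.6 ± 18.8 CPM of Myod1 in SRC3, 770.8 ± 15.9 in FRC1 and 776.5 ± 15.1 in PAR (SD, n = 3 each). Myf5, another myogenic factor gene, had 1 read in SRC3 and 0 in the other 6 libraries.

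Proteins at the surface of a cell receive signals and hold the cell to its matrix, while secreted proteins act on the cell itself or its neighbours. Several of the 9 are textbook markers of other cell types. Cspg4 encodes the NG2 proteoglycan of pericytes and oligodendrocyte precursors, Ngfr and Erbb3 encode receptors of the Schwann cell and neural crest lineages, Flt1 encodes a receptor for vascular endothelial growth factor (VEGF), and Ly75 encodes an endocytic receptor of dendritic cells. Cd24a encodes a small glycoprotein anchored by a lipid, and Gpnmb a transmembrane glycoprotein known from melanocytes and macrophages. Nptx1 encodes a secreted neuronal pentraxin that gathers glutamate receptors at synapses, and Pla2g7 the secreted phospholipase that inactivates platelet-activating factor.

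Promoter windows of 300 bases (250 before and 50 after the start) were at hand from RefSeq, build GRCm38.p6, for 6 of the 9 genes. A set of 4 is shown because it spans the patterns described below, with Cspg4 higher in both reserve populations, Ly75 level in FRC1, Gpnmb lower in FRC1 and Ngfr near 0 outside SRC3. Capitals mark the E-box CANNTG, the core bound by myogenic and other basic helix-loop-helix factors, and the GC box GGGCGG, both searched on both strands. The 2 motifs do not overlap each other in these windows.
Cspg4 (chr9:56864854-56865153, plus strand): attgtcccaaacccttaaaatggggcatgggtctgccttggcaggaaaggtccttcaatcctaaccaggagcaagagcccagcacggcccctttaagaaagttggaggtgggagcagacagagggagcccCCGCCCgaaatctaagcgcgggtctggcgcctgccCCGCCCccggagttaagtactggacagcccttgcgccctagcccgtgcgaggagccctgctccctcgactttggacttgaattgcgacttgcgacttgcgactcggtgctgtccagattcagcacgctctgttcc
Ngfr (chr11:95587649-95587948, minus strand): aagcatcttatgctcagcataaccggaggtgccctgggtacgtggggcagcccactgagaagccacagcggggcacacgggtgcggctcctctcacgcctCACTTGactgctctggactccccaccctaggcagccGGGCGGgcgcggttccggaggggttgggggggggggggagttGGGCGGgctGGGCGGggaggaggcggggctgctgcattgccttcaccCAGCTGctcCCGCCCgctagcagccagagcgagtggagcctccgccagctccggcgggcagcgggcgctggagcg
Ly75 (chr2:60383224-60383523, minus strand): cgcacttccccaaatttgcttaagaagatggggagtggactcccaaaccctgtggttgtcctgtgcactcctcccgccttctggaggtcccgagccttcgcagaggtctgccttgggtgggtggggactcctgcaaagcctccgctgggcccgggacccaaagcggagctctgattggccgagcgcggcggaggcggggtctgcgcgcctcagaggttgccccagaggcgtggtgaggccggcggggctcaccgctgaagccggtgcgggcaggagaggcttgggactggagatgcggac
Gpnmb (chr6:49036268-49036567, plus strand): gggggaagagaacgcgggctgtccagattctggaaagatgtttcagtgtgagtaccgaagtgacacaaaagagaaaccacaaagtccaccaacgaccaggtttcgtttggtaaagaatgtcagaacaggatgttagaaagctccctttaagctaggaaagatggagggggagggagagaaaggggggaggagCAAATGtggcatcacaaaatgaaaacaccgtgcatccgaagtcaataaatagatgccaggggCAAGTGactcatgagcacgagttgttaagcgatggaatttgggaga
The GC box was found in 4 of the 6 windows (Cspg4, Ngfr, Flt1 and Pla2g7), against 35.7% of 32841 RefSeq windows of the same length. The E-box was found in 3 of the 6 (Ngfr, Gpnmb and Pla2g7), against 72.3%. In the Ngfr window GC boxes began 114, 72, 63 and 16 bases before the start, and E-boxes began 150 and 25 bases before it. The first capitals of the Gpnmb window are an E-box that began 58 bases before the start, and the second E-box lay just after the start. Cspg4 had GC boxes 120 and 85 bases before the start. The Ly75 window held neither motif but a CCAAT box (CCAAT) 77 bases before the start, and Flt1 held a TATA box (TATAAA) 31 bases before it. The GC content of the windows was 71.7% for Ngfr, 70.7% for Flt1, 67% for Ly75, 60% for Cspg4, 54% for Pla2g7 and 47.7% for Gpnmb, against a median of 52.7% over all windows. AP-1 (TGANTCA) was found in Gpnmb alone, where it overlapped the second E-box, against 7.81% of all windows. CCAAT was found in Ly75 alone (37.4% of all windows) and TATAAA in Flt1 alone (13.6%), and neither the TEAD motif GGAATG (14.7%) nor CACGTG (7.15%) was found in the 6 windows. A match in so short a window is a description of its letters, not of binding.

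In each of the 9 genes the lowest SRC3 library lay above the highest of the 6 FRC1 and PAR libraries, as the rule that chose them would give. By the fit, 8 of the 9 were at least 4-fold higher in SRC3 than in PAR and 8 than in FRC1, Erbb3 being the exception in both. Of the 12540 tested genes, 1.01% and 0.797% passed and were at least 4-fold higher. The rule that chose the 9 would give this as well, and their count used the fold alone, without a test. Of all tested genes, 49.1% had SRC3 and PAR libraries that did not overlap in either direction, and 42.8% had SRC3 and FRC1 libraries that did not. Together the 9 genes took 0.24 to 0.274% of all gene counts in SRC3, 0.0178 to 0.0186% in FRC1 and 0.0191 to 0.0193% in PAR. In these bulk libraries, fewer cells with a transcript and less transcript per cell cannot be told apart.

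**Figure D1:**
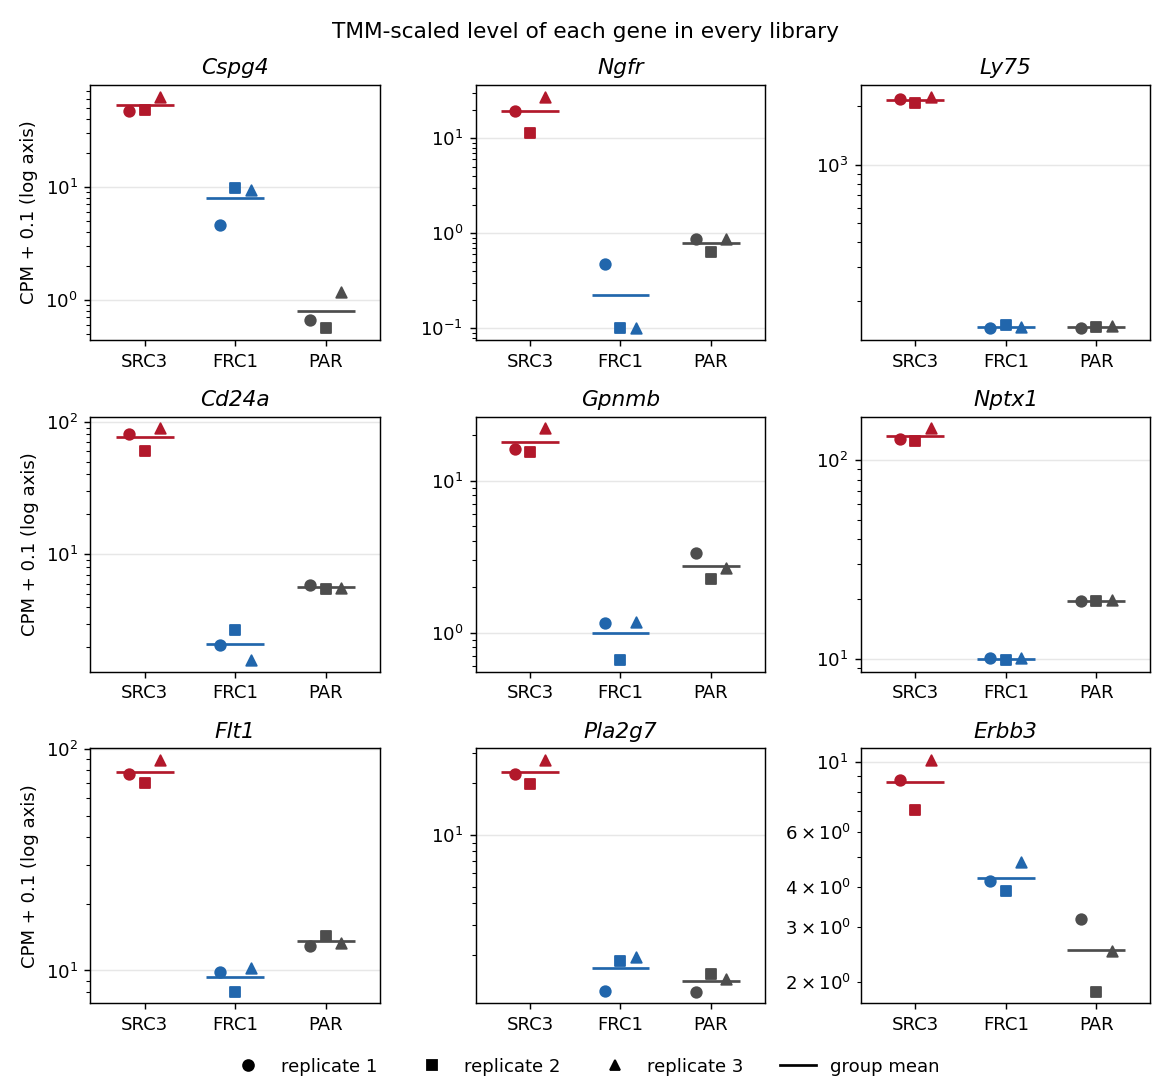
TMM-scaled CPM (plus 0.1, log axis) of each gene in every library of SRC3, FRC1 and PAR, with replicates as symbols and the group mean as a line. The SRC3 points lie above all others in each panel, while FRC1 lies above PAR for Cspg4 and Erbb3, below it for Cd24a, Gpnmb, Nptx1 and Flt1, and level with it for Ly75.

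Among the receptors and the proteoglycan, Cspg4 had the largest gain over PAR. Cspg4 (ENSMUSG00000032911, GRCm38 chromosome 9, 56865033 to 56899870, plus strand) had 46.9, 47.3 and 62.7 CPM in SRC3, 4.47, 9.73 and 9.26 CPM in FRC1, and 0.56, 0.459 and 1.07 CPM in PAR. The groups were apart from each other without overlap, in the order SRC3, FRC1, PAR. Its SRC3 mean of 52.3 ± 9.01 CPM was 6.69-fold the FRC1 mean and 75.2-fold the PAR mean, the third largest log2 fold change over PAR among the tested genes (6.2). The PAR mean rested on 29 reads in all.

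Ngfr, whose product binds all neurotrophins with low affinity (ENSMUSG00000000120, chromosome 11, 95568818 to 95587735, minus strand), had 19.4, 11.3 and 27.5 CPM in SRC3, 0.379, 0 and 0 CPM in FRC1, and 0.77, 0.536 and 0.782 CPM in PAR. It was the most variable of the 9 within SRC3, where replicate 3 had 2.43 times the level of replicate 2. Outside SRC3 it was close to the limit of the method, with 5 reads over FRC1, all in replicate 1, and 29 over PAR. The SRC3 mean of 19.4 ± 8.09 CPM was 154-fold the FRC1 mean and 27.9-fold the PAR mean. FRC1 replicates 2 and 3 had 0 reads each, so the fold over FRC1 rests on the 5 reads of replicate 1.

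Ly75 was by far the most abundant of the 9. Ly75 (ENSMUSG00000026980, chromosome 2, 60292103 to 60383303, minus strand) had 2163, 2065 and 2236 CPM in SRC3, 144.5, 150.2 and 146.8 CPM in FRC1, and 145.2, 146.6 and 148.3 CPM in PAR. The 6 libraries outside SRC3 lay within a few percent of each other. Its SRC3 mean of 2155 ± 85.6 CPM was 14.6-fold the FRC1 mean and 14.7-fold the PAR mean, and its 85687 reads were most of the reads of the 9 genes in SRC3.

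Flt1 binds VEGF and also exists as a shorter, secreted form that cannot be told from the membrane form in counts per gene. Flt1 (ENSMUSG00000029648, chromosome 5, 147561604 to 147726011, minus strand) had 76.6, 70.3 and 89 CPM in SRC3, 9.78, 7.91 and 10.1 CPM in FRC1, and 12.8, 14.2 and 13.2 CPM in PAR. Erbb3, whose product binds neuregulins but has little kinase activity of its own (ENSMUSG00000018166, chromosome 10, 128567523 to 128589652, minus strand), had 8.65, 6.94 and 10 CPM in SRC3, 4.09, 3.78 and 4.7 CPM in FRC1, and 3.08, 1.76 and 2.42 CPM in PAR. Flt1 was lowest in FRC1 and Erbb3 was lowest in PAR, with no overlap between groups in either gene. The SRC3 mean of Flt1, 78.7 ± 9.5 CPM, was 8.49-fold that of FRC1 and 5.86-fold that of PAR. Erbb3 had the smallest gain of the 9, with an SRC3 mean of 8.54 ± 1.55 CPM that was 2.04-fold that of FRC1 and 3.53-fold that of PAR, so that "several-fold" described it less well than the other 8.

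Both surface glycoprotein genes were lowest in FRC1. Cd24a (ENSMUSG00000047139, chromosome 10, 43578284 to 43584265, plus strand) had 80.4, 60.1 and 88.9 CPM in SRC3, 1.97, 2.59 and 1.5 CPM in FRC1, and 5.74, 5.36 and 5.47 CPM in PAR. Gpnmb (ENSMUSG00000029816, chromosome 6, 49036546 to 49070929, plus strand) had 16.1, 15.3 and 22 CPM in SRC3, 1.06, 0.56 and 1.07 CPM in FRC1, and 3.22, 2.14 and 2.56 CPM in PAR. All 3 groups were apart in both genes, in the order SRC3, PAR, FRC1. Their SRC3 means were therefore further above FRC1 than above PAR, 37.9-fold and 13.8-fold for Cd24a at 76.4 ± 14.8 CPM, and 19.9-fold and 6.75-fold for Gpnmb at 17.8 ± 3.69 CPM.

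The secreted proteins followed 2 different orders. Nptx1 (ENSMUSG00000025582, chromosome 11, 119538719 to 119547753, minus strand) had 127.7, 125.8 and 145.1 CPM in SRC3, 10, 9.73 and 9.98 CPM in FRC1, and 19.5, 19.4 and 19.6 CPM in PAR. It was the tightest of the 9 outside SRC3, and its FRC1 mean was 0.508 times its PAR mean. Pla2g7 (ENSMUSG00000023913, chromosome 17, 43568098 to 43612201, plus strand) had 22.6, 19.7 and 27.1 CPM in SRC3, 1.14, 1.75 and 1.85 CPM in FRC1, and 1.12, 1.45 and 1.35 CPM in PAR, so that FRC1 and PAR overlapped. The SRC3 mean of Nptx1, 132.9 ± 10.6 CPM, was 13.4-fold that of FRC1 and 6.82-fold that of PAR, and that of Pla2g7, 23.1 ± 3.76 CPM, was 14.6-fold and 17.7-fold.

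Per length of exon, the order of the 9 genes differed from that of their CPM. The length was that of all exons annotated to a gene, over all its transcripts. With the length of a single transcript the values, and the order of genes close to each other, could differ. In SRC3 Ly75 had 312 CPM per kb, rank 86 of 12520 genes with an annotated length. Cd24a followed with 29.6 CPM per kb and Nptx1 with 25.5, then Pla2g7 with 7.96, Flt1 with 5.82, Ngfr with 5.64, Cspg4 with 4.38, Gpnmb with 2.74 and Erbb3 with 1.42. In FRC1 and PAR Ly75 was again first, with 21.3 and 21.2 CPM per kb, while the other 8 lay at 0.0367 to 1.9 in FRC1 and 0.0583 to 3.73 in PAR. Antisense genes overlapped exons of Ly75 and Pla2g7. They had 3 reads over SRC3 and 0 elsewhere for Gm13571 beside Ly75, and 0 reads for 1700071M16Rik beside Pla2g7. Between 0 and 4.54% of the stretches of 50 bases of the longest coding transcript of each gene also occurred in a transcript of another gene.

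**Figure D2:**
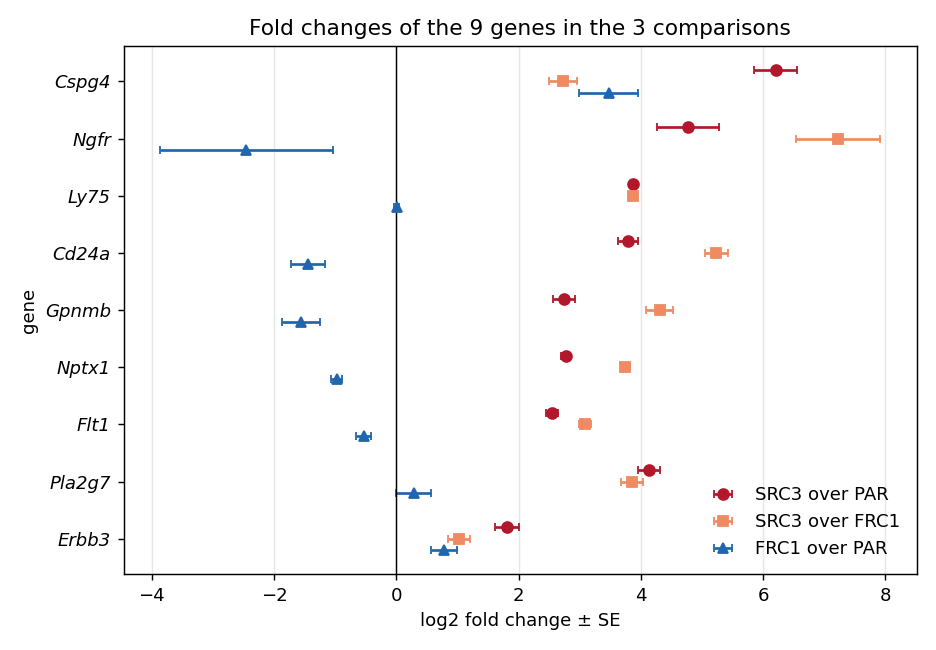
Log2 fold changes (horizontal axis, with SE) of the 9 genes from edgeR's fit of all 9 libraries, for SRC3 over PAR, SRC3 over FRC1 and FRC1 over PAR. The 2 SRC3 comparisons are those that chose the genes, while FRC1 over PAR ranges from -2.45 for Ngfr to 3.47 for Cspg4.

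The comparison of FRC1 with PAR was the contrast that the choice of genes did not use directly, although both groups served as the low side of it. The 9 genes did not share a direction there. Cspg4 and Erbb3 were higher in FRC1, Cd24a, Gpnmb, Nptx1 and Flt1 were lower, and Ly75 and Pla2g7 did not pass at an adjusted p of 0.05. Nor did Ngfr, whose test is not read for the reason given below. That made 6 called of the 8 that passed the filter on low counts without SRC3, against 28.3% of all 12540 tested genes (13.6% higher and 14.7% lower). Of all 9, 7 had libraries that did not overlap, against 44.2% of all tested genes. Ngfr is 1 of these 7, although it passed the filter through SRC3 alone. The 9 were picked for high SRC3 levels, so these shares describe the list and show nothing particular to it.

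Cspg4 averaged 7.82 ± 2.91 CPM in FRC1 and 0.695 ± 0.325 CPM in PAR (SD, n = 3 each; log2 fold change 3.47, SE 0.48; edgeR adjusted p = 0.00088). Erbb3 averaged 4.19 ± 0.47 CPM in FRC1 and 2.42 ± 0.66 CPM in PAR (log2 fold change 0.78, SE 0.218; edgeR adjusted p = 0.011). Among pericyte and smooth muscle markers other than Cspg4, 5 were tested, with a median log2 fold change of 0.95 in FRC1 over PAR. Of these, 3 were also higher in FRC1 and 1 was lower. The lower one was Des, which is also counted among the myoblast markers. The part of these markers in the Cspg4 level was not tested. The Erbb3 call ended without PAR replicate 2 (edgeR adjusted p = 0.066) or FRC1 replicate 3 (0.06), in a range of 0.0057 to 0.066 over libraries left out in turn.

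Nptx1, the pentraxin gene, fell to 9.9 ± 0.152 CPM in FRC1, against 19.5 ± 0.123 CPM in PAR (log2 fold change -0.98, SE 0.0908; edgeR adjusted p = 2.3e-07). Gpnmb fell to 0.897 ± 0.292 CPM in FRC1, against 2.64 ± 0.543 CPM in PAR (log2 fold change -1.56, SE 0.311; edgeR adjusted p = 0.00092). Cd24a fell to 2.02 ± 0.548 CPM in FRC1, against 5.52 ± 0.196 CPM in PAR (log2 fold change -1.45, SE 0.277; edgeR adjusted p = 0.002). These are the gene of a synaptic organiser and those of 2 membrane glycoproteins. Flt1 fell to 9.27 ± 1.19 CPM in FRC1, against 13.4 ± 0.737 CPM in PAR (log2 fold change -0.53, SE 0.122; edgeR adjusted p = 0.0029).

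Ly75 had a log2 fold change of 0.01 (95% interval -0.09 to 0.1; edgeR adjusted p = 0.95), so that a difference between FRC1 and PAR of more than 1.07-fold lay outside the interval. Pla2g7 had a log2 fold change of 0.28 with a wider interval of -0.32 to 0.88 (edgeR adjusted p = 0.5). Ngfr stood at 0.126 ± 0.219 CPM in FRC1 and 0.696 ± 0.139 CPM in PAR. It passed the filter on low counts through SRC3 alone, the group it was chosen for, so its comparison between FRC1 and PAR is given by these levels and no test of it is read.

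**Figure D3:**
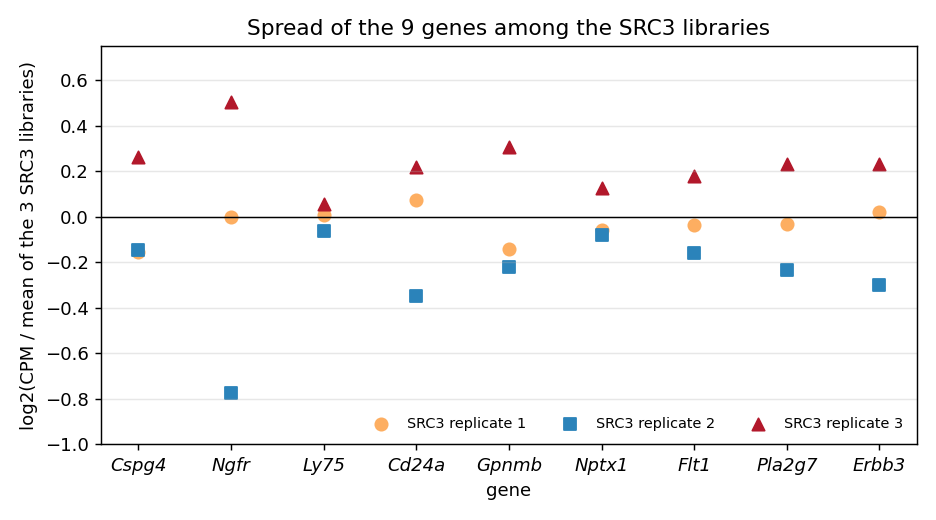
Log2 of the CPM of each SRC3 library over the mean of the 3 SRC3 libraries, for each of the 9 genes. Replicate 3 is highest in all 9 genes and replicate 2 lowest in 8, with the widest spread in Ngfr and the narrowest in Ly75.

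Within SRC3 the 9 genes varied together. Replicate 3 had the highest level in all 9 and replicate 2 the lowest in 8, the exception being Cspg4, whose lowest library was replicate 1. Over all tested genes, replicate 3 was highest in 34.7% and replicate 2 lowest in 35.5%. The coefficient of variation was 3.97% for Ly75, 8% for Nptx1, 12.1% for Flt1, 16.3% for Pla2g7, 17.2% for Cspg4, 18.1% for Erbb3, 19.3% for Cd24a, 20.7% for Gpnmb and 41.6% for Ngfr. Its median over the 9944 tested genes with at least 5 CPM in SRC3 was 6.05%. The genes share their libraries, so this agreement is 1 observation about 3 libraries and not 9.

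Genes with known partners were read beside those partners, from family lists with the 9 genes left out. Of 9 tested neurotrophin ligands, receptors and Ngfr partners, 4 were higher and 4 lower in SRC3 than in PAR, with a median log2 fold change of -0.12, against 37.9% of all genes called (33.5% in SRC3 against FRC1) and a median of 0.01. Of the genes for kinase receptors that carry neurotrophin signals, Ntrk2 had 0 reads in any library and Ntrk3 stayed at or below 0.0729 CPM in every group mean. Sorcs2, which encodes a sortilin-type receptor that can pair with Ngfr, had 207.9 ± 14.4 CPM in SRC3, 121 ± 8.65 in FRC1 and 120 ± 6.76 in PAR (SRC3 over PAR, log2 fold change 0.79; edgeR adjusted p = 3.5e-09). Its relative Sorcs1 had 0 reads in SRC3 and 134 in PAR and was at least 42.9-fold lower, with 3 counts over the SRC3 group taken as the floor. Bdnf, a ligand gene, had 21 ± 2.23 CPM in SRC3, 9.74 ± 1.6 in FRC1 and 15.5 ± 0.446 in PAR, and was higher in SRC3 than in PAR (log2 fold change 0.44; edgeR adjusted p = 0.0033).

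The list of ErbB receptors and ligands also held Errfi1 and Lrig1, which encode neither. Among its 11 tested genes other than Erbb3, 3 were higher and 4 lower in SRC3 than in PAR (median log2 fold change -0.17). Errfi1 and Lrig1 were among the 4 lower (edgeR adjusted p = 0.0051 and 0.045). The Lrig1 call held in 8 of 17 alternatives. In FRC1 against PAR, 2 of the 11 were lower and 9 did not pass (median -0.07, beside 0 over all genes). Egfr, the epidermal growth factor receptor gene, had 28.3 ± 3.98 CPM in SRC3, 60 ± 6.79 in FRC1 and 75.3 ± 3 in PAR, and was lower in SRC3 than in PAR (log2 fold change -1.41; edgeR adjusted p = 4.5e-09). Erbb2, whose product is the usual kinase partner of Erbb3, had 51.1 ± 1.18 CPM in SRC3, 64.8 ± 3.09 in FRC1 and 68.1 ± 2.03 in PAR (log2 fold change -0.41; edgeR adjusted p = 1.1e-05). Erbb4 had at most 0.0233 CPM in a group mean. Nrg1, the neuregulin gene whose product binds Erbb3, was higher in SRC3 at 21.1 ± 2.46 CPM, against 14.8 ± 0.773 CPM in PAR (log2 fold change 0.51; edgeR adjusted p = 0.00093). Areg, the amphiregulin gene, had 24.2 ± 2.48 CPM in SRC3 and 18.4 ± 0.236 CPM in PAR (edgeR adjusted p = 0.0044).

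The other VEGF receptor genes were absent or nearly so. Kdr had 0 reads in all 9 libraries and Flt4 at most 0.0467 CPM in a group mean. Of the 7 other tested genes of the VEGF family, 1 was higher and 3 were lower in SRC3 than in PAR, with a median log2 fold change of -0.33. The gene that was higher was Nrp2, a co-receptor gene, with 60.8 ± 3.12 CPM in SRC3, 20.1 ± 1.15 in FRC1 and 27.2 ± 0.941 in PAR (log2 fold change 1.16; edgeR adjusted p = 5.7e-11). Like Flt1 it was lower in FRC1 than in PAR (log2 fold change -0.44; edgeR adjusted p = 0.00031). The other co-receptor gene, Nrp1, was lower in SRC3 at 37.3 ± 2.79 CPM, against 51.4 ± 3.33 CPM in PAR (edgeR adjusted p = 2.8e-05). Vegfa, a ligand gene for Flt1, had 205.6 ± 16.4 CPM in SRC3, 368.9 ± 61.4 in FRC1 and 280.6 ± 10.6 in PAR. It was lower in SRC3 than in PAR (edgeR adjusted p = 0.01), a call that ended without SRC3 replicate 3 (0.066).

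**Figure D4:**
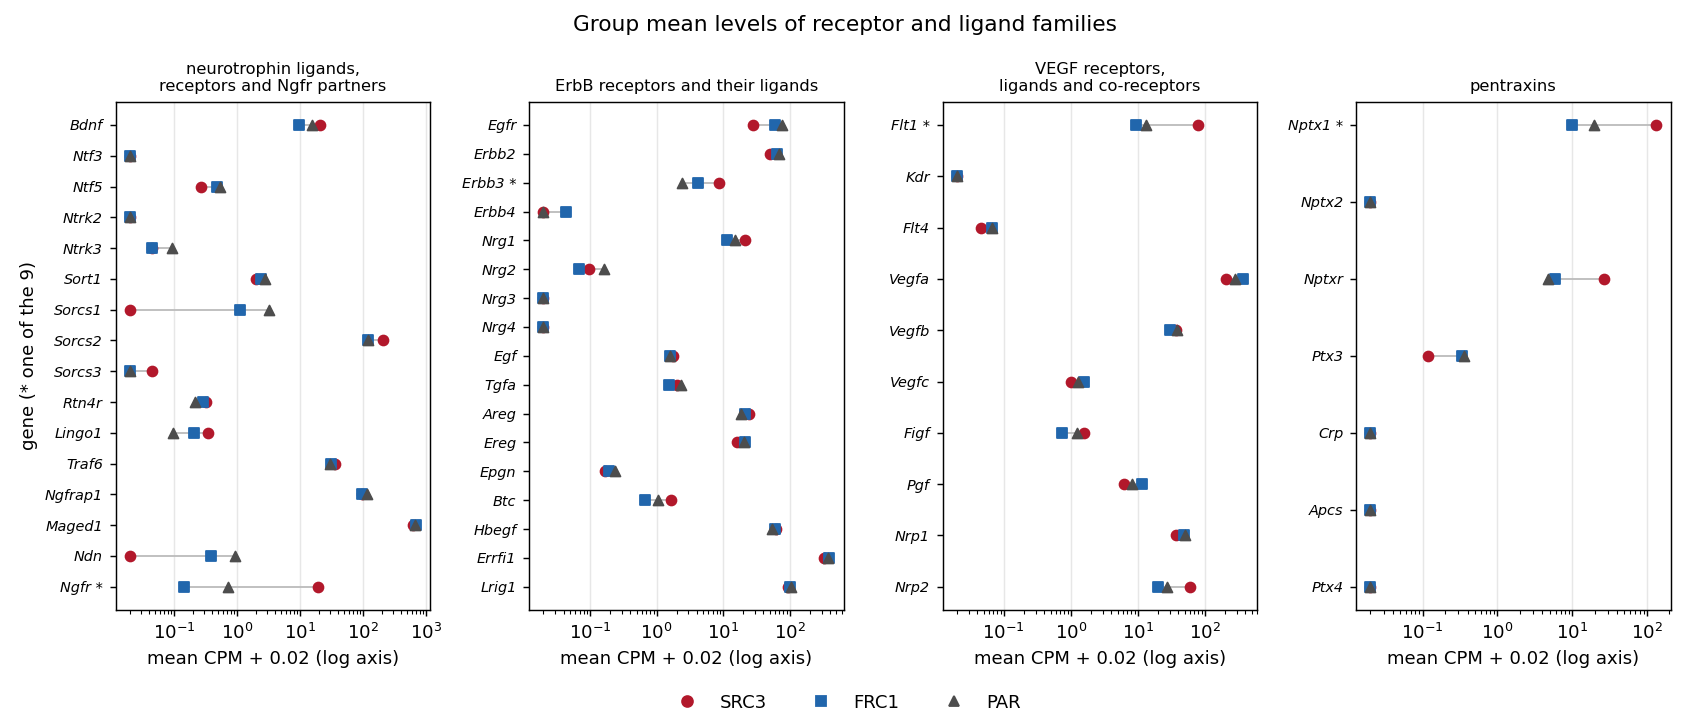
Mean CPM (plus 0.02, log axis) of genes of 4 families in SRC3, FRC1 and PAR, with asterisks at the genes described here. In the rows of Ngfr, Erbb3, Flt1, Nptx1 and Nptxr the SRC3 point lies furthest right, while Kdr, Ntrk2 and several pentraxin genes sit at 0 in all groups.

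Nptxr, which encodes the neuronal pentraxin receptor, had 26.6 ± 1.87 CPM in SRC3, 5.82 ± 1.29 in FRC1 and 4.73 ± 0.304 in PAR. It was higher in SRC3 than in PAR (log2 fold change 2.49; edgeR adjusted p = 7.6e-12) and than in FRC1 (log2 fold change 2.19; edgeR adjusted p = 3.8e-11), while FRC1 against PAR did not pass (edgeR adjusted p = 0.17), except without FRC1 replicate 1. It was the only tested member of the list of 6 other pentraxin genes, of which Nptx2, Crp, Apcs and Ptx4 had 0 reads and Ptx3 at most 0.335 CPM in a group mean. Of 11 other tested proteoglycan core protein genes, 1 was higher and 5 were lower in SRC3 than in PAR (median log2 fold change -0.11). Gpc4, a glypican gene, had 0.177 ± 0.119 CPM in SRC3, 3.04 ± 0.318 in FRC1 and 10.2 ± 0.725 in PAR (SRC3 over PAR, log2 fold change -5.78, between -6.39 and -5.44 with single libraries left out; edgeR adjusted p = 2.1e-12). Gpc2, another glypican gene, had 0.127 ± 0.158 CPM in SRC3 and 1.15 ± 0.4 CPM in PAR (log2 fold change -3.11, between -4.64 and -2.53 with single libraries left out; edgeR adjusted p = 0.00048). Hspg2, the perlecan gene, had 399.8 ± 64.2 CPM in SRC3 and 548 ± 38.3 CPM in PAR (edgeR adjusted p = 0.0069, but 0.055 without SRC3 replicate 3). Vcan, the versican gene, had 215 ± 20.4 CPM in SRC3 and 308 ± 13.8 in PAR (log2 fold change -0.52; edgeR adjusted p = 5.4e-05).

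Of the 4 relatives of Ly75 in the mannose receptor list, Mrc2 was higher in SRC3 than in PAR, at 15.9 ± 1.76 CPM in SRC3 and 9.19 ± 0.853 in PAR (edgeR adjusted p = 4.3e-05). Cd302, the gene next to Ly75 on chromosome 2, was lower, at 2.49 ± 0.355 CPM in SRC3 and 8.31 ± 0.509 in PAR (log2 fold change -1.74; edgeR adjusted p = 3.7e-08), and Pla2r1, on its other side, was lower as well, at 7.53 ± 1.32 CPM in SRC3 and 15 ± 0.269 in PAR (log2 fold change -1; edgeR adjusted p = 1.3e-06). Around Cd24a, 10 other genes of Cd24 partners and lipid-anchored proteins were tested, with 3 higher and 5 lower in SRC3 than in PAR. L1cam, which encodes a neural adhesion molecule that can bind CD24, was higher at 20.2 ± 2.61 CPM in SRC3, against 4.48 ± 0.321 CPM in PAR (log2 fold change 2.17; edgeR adjusted p = 1.4e-10). Nt5e, the gene of the lipid-anchored ecto-enzyme CD73, was higher at 76.3 ± 3.89 CPM in SRC3, against 20.4 ± 0.382 CPM in PAR (log2 fold change 1.9; edgeR adjusted p = 4.4e-13). Cd55, the gene of a lipid-anchored complement inhibitor, was lower at 0.407 ± 0.325 CPM in SRC3, against 7.1 ± 0.193 CPM in PAR (log2 fold change -4.11, between -4.92 and -3.7 with single libraries left out; edgeR adjusted p = 1.5e-09). Siglecg, the gene of a CD24-binding lectin, was lower at 2.35 ± 1.12 CPM in SRC3, against 7.66 ± 1.85 CPM in PAR (edgeR adjusted p = 4.4e-05).

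For Pla2g7, 10 other phospholipase and platelet-activating factor genes were tested, with 3 higher, 3 lower and 4 that did not pass in SRC3 against PAR (median log2 fold change -0.05). Lpcat2, which encodes an enzyme that makes platelet-activating factor, had 0 reads in SRC3, 63 in FRC1 and 50 in PAR, and was at least 20.1-fold lower than in FRC1 and at least 16-fold lower than in PAR. Ptafr, the receptor gene, was at most 0.0253 CPM in a group mean. For Gpnmb, the transcription factor genes Mitf, Tfeb and Tfe3, known for lysosomal and melanocyte genes, did not pass in SRC3 against PAR (edgeR adjusted p = 0.087, 0.72 and 0.95), and Mitf had 8.24 ± 0.786 CPM in SRC3, 5.29 ± 0.86 in FRC1 and 6.57 ± 0.724 in PAR. Against FRC1, Mitf was higher in SRC3 (log2 fold change 0.64, edgeR adjusted p = 0.0025) and Tfeb did not pass (0.52). Tfe3 was higher there by a log2 fold change of 0.15 (edgeR adjusted p = 0.047), a call that held in 7 of 17 alternatives. The part of these genes in the Gpnmb level was not tested. Pmel, the closest relative of Gpnmb, had at most 0.0764 CPM in a group mean.

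**Figure D5:**
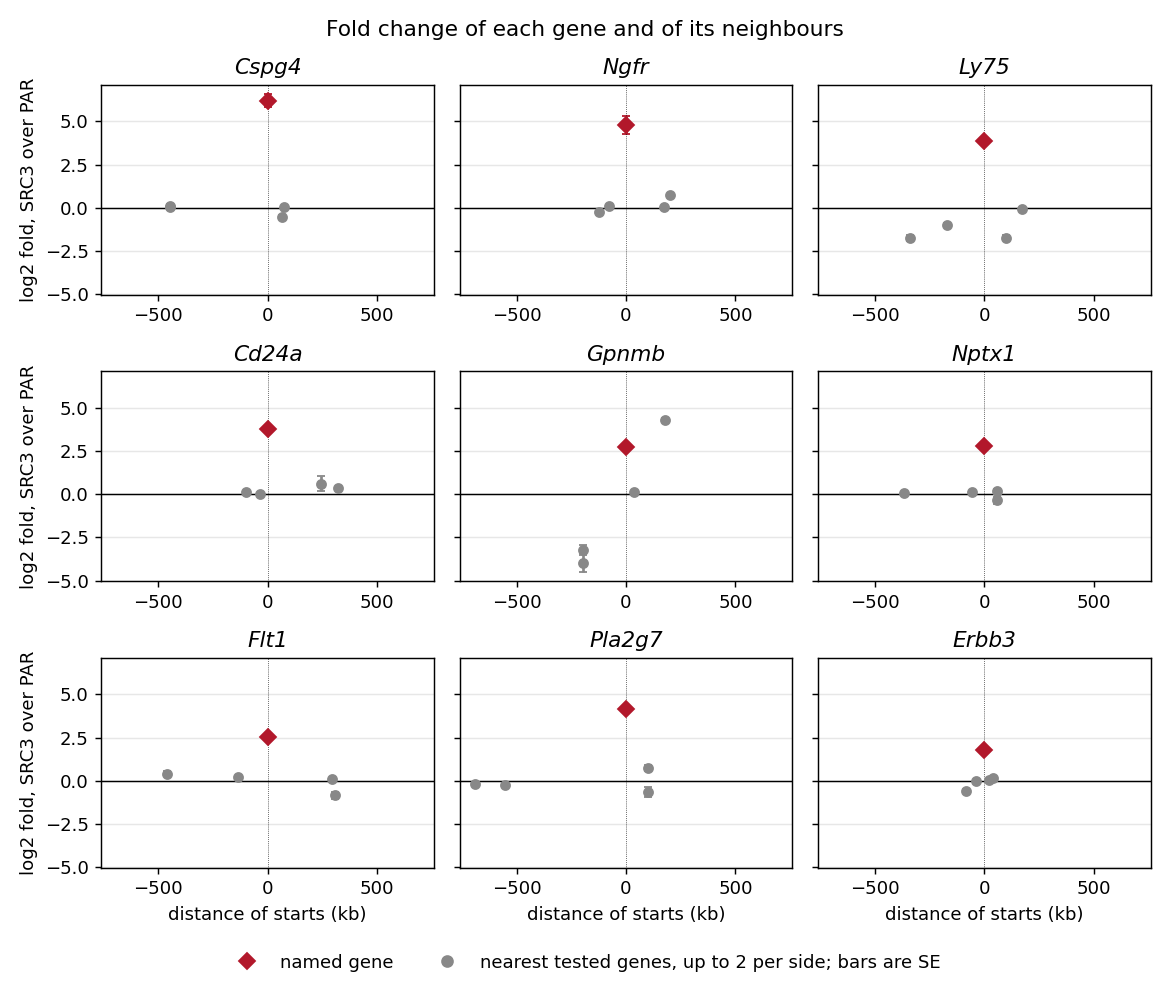
Log2 fold change of SRC3 over PAR (vertical axis, with SE) for each of the 9 genes (diamonds) and for the nearest tested genes on both sides (circles), against the distance between gene starts in kb. Most neighbours lie near 0, apart from 1 high point (Igf2bp3) and 2 low points (Tmem176b and Tmem176a) in the Gpnmb panel and 3 low points (Itgb6, Pla2r1 and Cd302) in the Ly75 panel.

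The 36 nearest tested genes, 2 on each side of each gene, had a median log2 fold change of 0.03 in SRC3 over PAR, with 7 higher, 11 lower and 18 that did not pass, beside 17.8% higher and 20.2% lower among all tested genes. Around Ly75 all 3 neighbours that passed were lower, Itgb6 among them (log2 fold change -1.78; edgeR adjusted p = 1.4e-07). Igf2bp3, an RNA-binding protein gene whose start lies 178 kb from that of Gpnmb, was the largest exception, at 91.3 ± 2.11 CPM in SRC3, 9.37 ± 1.27 in FRC1 and 4.56 ± 0.301 in PAR. It was higher in FRC1 than in PAR (log2 fold change 1.04; edgeR adjusted p = 4.5e-06), where Gpnmb was lower. On the other side of Gpnmb, Tmem176b had 0.427 ± 0.112 CPM in SRC3, 7.75 ± 0.493 in FRC1 and 4.1 ± 0.821 in PAR.

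Genes of the most similar pattern were found by the root mean square difference of log2 CPM over the 9 libraries, each gene centred on its own mean, with smaller values for closer patterns. Among the 9 themselves the closest pair was Ly75 and Pla2g7 (0.213), followed by Nptx1 and Flt1 (0.288) and by Gpnmb and Nptx1 (0.329), while Cspg4 and Ngfr were furthest apart (2.3). Outside the 9, Igfbp6 was closest to Flt1 (0.154), Kcnj12 to Erbb3 (0.152) and Rps6ka6 to Nptx1 (0.3). Tfap2a stood at 0.308 from Ly75 and 0.346 from Pla2g7, and Cacng6 at 0.456 from Gpnmb. Smaller values were found for Dmrta1 with Ly75 (0.275) and Pla2g7 (0.344) and for Fam213b and Pcdhga6 with Gpnmb (0.369 each), but Dmrta1 had 0.0233 CPM in FRC1 and 0 in PAR, and in FRC1 Fam213b had 0 CPM and Pcdhga6 0.171. At such levels the log2 value is set largely by the prior count of 2, which also bears on the other genes under 1 CPM in a group, Ngfr among them. Plxna4, a semaphorin receptor gene, was closest to Cd24a (0.729) and to Ngfr (1). Grem1, which encodes a secreted antagonist of bone morphogenetic proteins, was closest to Cspg4 (0.687), at 8.84 CPM in SRC3, 1.12 in FRC1 and 0.169 in PAR. Igf2bp3 followed (1.02), and then Pdgfb (1.11), which had 3.53 CPM in SRC3, 0.48 in FRC1 and 0.165 in PAR.

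Marker lists of the cell types for which the 9 genes are known were summed with the 9 left out. Of 10 Schwann cell and neural crest markers Sox10, Foxd3 and S100b had 0 reads in all 9 libraries, and the summed level was 7.56 to 8.97 CPM in SRC3, 4.93 to 5.2 in FRC1 and 4.9 to 6.89 in PAR. Among the markers that were detected, Mbp had 3.5 ± 0.512 CPM in SRC3, 1.77 ± 0.452 in FRC1 and 3.96 ± 0.664 in PAR, and did not pass in SRC3 against PAR (edgeR adjusted p = 0.5). This sum was highest in SRC3, as Ngfr and Erbb3 were, but FRC1 lay within the range of PAR, where Erbb3 was higher in FRC1. Its part in their levels was not tested. Of 7 melanocyte markers 5 had 0 reads in all libraries (Tyr, Tyrp1, Dct, Mlana and Slc45a2), with sums of 7.41 to 9.12 CPM in SRC3, 4.42 to 6.14 in FRC1 and 5.76 to 7.14 in PAR. Of 9 endothelial markers Kdr, Tie1, Emcn and Cldn5 had 0 reads, with sums of 4.25 to 4.71 CPM in SRC3, 3.01 to 4.56 in FRC1 and 3.06 to 3.68 in PAR. Of the 2 tested, Esam was higher in SRC3 than in PAR (log2 fold change 0.89, edgeR adjusted p = 0.045), where Egfl7 did not pass (0.65). Egfl7 was higher in SRC3 than in FRC1 (log2 fold change 0.75, edgeR adjusted p = 0.045), where Esam did not pass (0.96). The calls held in 9 and 7 of 16 alternatives. Esam was also higher in FRC1 than in PAR (edgeR adjusted p = 0.048, in 8 of 16 alternatives), where Flt1 was lower.

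Among 10 macrophage and dendritic cell markers Adgre1, Cd74, Itgax and Lyz2 had 0 reads and Ptprc had 0 in SRC3, and the sums were 3.57 to 5.21 CPM in SRC3, 3.18 to 3.92 in FRC1 and 2.98 to 4.13 in PAR, mostly Cd68. Of 8 epithelial markers Cdh1, Cldn4 and Cldn7 had 0 reads, and the sums of 24.6 to 39.5 CPM in SRC3, 30.4 to 38.5 in FRC1 and 48.9 to 52.3 in PAR were mostly Krt19, which was lower in SRC3 than in PAR (log2 fold change -0.76; edgeR adjusted p = 0.0059). Krt18 was higher, at 3.63 ± 0.545 CPM in SRC3, 1.58 ± 0.411 in FRC1 and 1.01 ± 0.221 in PAR (SRC3 over PAR, log2 fold change 1.83; edgeR adjusted p = 1.3e-05). Of 11 pericyte and smooth muscle markers the defining pericyte genes Pdgfrb, Kcnj8 and Abcc9 were at or below 0.0511 CPM in every group mean. Their sum, 481 to 532 CPM in SRC3, 1040 to 1160 in FRC1 and 910 to 959 in PAR, was mostly Des, Acta2 and Tagln. All 5 tested markers of this list were lower in SRC3 than in PAR, where Cspg4 was higher, beside 20.2% lower among all tested genes. Des is 1 of the 5 (log2 fold change -0.63) and is counted among the myoblast markers as well. The Mcam call against PAR ended without SRC3 replicate 2 or 3 (edgeR adjusted p up to 0.073), and that of Notch3 without SRC3 replicate 2 (0.056). Acta2, Mcam and Tagln were higher in FRC1 than in PAR, as Cspg4 was. Acta2 had 8.59 ± 5.29 CPM in SRC3, 199.4 ± 30.4 in FRC1 and 67.2 ± 5.64 in PAR (FRC1 over PAR, log2 fold change 1.57; edgeR adjusted p = 0.0046), and Mcam had 8.89 ± 1.08 CPM in SRC3, 51.2 ± 14.5 in FRC1 and 19 ± 2.02 in PAR (log2 fold change 1.43; edgeR adjusted p = 0.0016). The Tagln call in FRC1 (log2 fold change 0.95; edgeR adjusted p = 0.033) held in 9 of 17 alternatives. Of 10 fibroblast markers Lum and Tcf21 had 0 reads, and the sums of 281 to 309 CPM in SRC3, 288 to 403 in FRC1 and 562 to 591 in PAR were mostly Col3a1, which was lower in SRC3 than in PAR (log2 fold change -1.01; edgeR adjusted p = 4.6e-05). Cd34 was higher, at 4.29 ± 1.47 CPM in SRC3, 1.81 ± 0.0759 in FRC1 and 1.14 ± 0.199 in PAR (SRC3 over PAR, log2 fold change 1.91; edgeR adjusted p = 1.3e-05). Of 12 myoblast markers, 11 of them tested, 2 were higher and 7 lower in SRC3 than in PAR, and the sums were 2640 to 2840 CPM in SRC3, 3360 to 3470 in FRC1 and 3590 to 3690 in PAR.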

How the data were processed

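Messenger RNA of 9 libraries was compared. Values deposited by the authors are raw read counts, as whole numbers for each gene. Tools named in the submitters' processing notes are HISAT2 2.1.0, HTSeq 0.9.1 and DESeq2, with build GRCm38. No source used here gives the strand setting of the counting.

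The 5 summary lines of each file were left out. After filterByExpr, 12540 genes were fitted in edgeR 4.0.16 (R 4.3.3) with TMM scaling and group as the term, all libraries in 1 model. The two-sided quasi-likelihood tests were adjusted by Benjamini-Hochberg over all tested genes (threshold 0.05). Folds are ratios of mean CPM, while log2 fold changes, SE and 95% intervals come from the fit. Patterns used log2 CPM with a prior count of 2. Locations are from GENCODE M21 (47310 of 47729 identifiers matched). Replicate pairs differed by more than sampling noise (chi-square per degree of freedom 1.81 to 7.47). Floors cover counting error only.

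The 9 genes and all lists were chosen with earlier results of these data known. List genes named are up to 4 of the largest changes that passed with 1 CPM or more in the higher group, plus receptors and ligands by value. Chromosome neighbours and promoter motifs were added after the data were seen. Alternatives were RLE or library sizes alone, no filter or 5 CPM in 3 libraries, DESeq2 1.42.0, limma voom (limma 3.58.1), a fit of the 2 compared groups, a replicate block, and each library left out. Some list genes are counted in their lists but not reported here by value.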

Additional observations from a re-analysis of the deposited data

How the results depend on the processing

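In FRC1 against PAR, 6 of the 9 genes passed in edgeR, and 5 to 7 did so over the 17 alternatives. It was 7 with DESeq2, with the replicate block and without SRC3 replicate 2, Ngfr being the added gene. Cspg4, Cd24a, Gpnmb, Nptx1 and Flt1 passed in the same direction in all 17. Erbb3 passed in 15, and Ngfr in 3 of the 16 that tested it. Ly75, which did not pass, changed sign without PAR replicate 1, PAR replicate 2 or FRC1 replicate 2, in a range of -0.0135 to 0.0201 on the log2 scale. With 1 library left out at a time, the count of changed genes was 2327 to 3987 for FRC1 against PAR (3550 with all), 3845 to 4924 for SRC3 against PAR (4758) and 3371 to 4281 for SRC3 against FRC1 (4199); the lowest, 2327, was without FRC1 replicate 3, and the cause was not tested. The fold changes of SRC3 over FRC1 and PAR moved by less than the replicate spread in all but 1 of 306 values, Ngfr over FRC1 without FRC1 replicate 1. That spread was taken from the same libraries, so leaving 1 of them out can rarely move a value beyond it. These comparisons also chose the genes, so the count is a description and no measure of stability. The titles give replicates only a number, so whether same-numbered libraries are paired cannot be told from them. Same-numbered libraries had correlations of -0.0704 to 0.118 in their deviations from group means. Of 9 libraries, 5 correlated best with their own number in both other groups. With the replicate block 3560, 4798 and 4221 genes changed in the 3 comparisons. Ngfr had 5 reads over FRC1 and passed the filter only through SRC3, so its passes are counts of settings and not a result.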
